A study of Rattus norvegicus with 5 samples.

Results

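The transcripts described here were those with less signal late in the first hour of insulin in Fao cells. They were selected by 3 of the 5 measured values, as the probes at least 1.5-fold (0.59 on the log2 scale, rounded) below their 0 min value at both 45 and 60 min, among probes well above background on all 5 arrays. This gave 96 of 19762 such probes, or 0.486%, out of 41012 probes on the array that are not controls. A mirrored rule for signal above the 0 min value found 156 probes (0.789%). Because the 0, 45 and 60 min values chose the members, those values are given as a description. Each time had 1 array, so no value carries a p-value.

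Fao cells come from a rat liver tumour and still perform much of what hepatocytes do. Per the labels, they grew for 2 days with 10% serum, then starved for 16 h in the presence of the glucocorticoid dexamethasone at 10 nM, and then received insulin at 10 nM. The groups were 0, 15, 30, 45 and 60 min of insulin, all after the same starvation with dexamethasone, and cells kept without insulin for these times were not analysed here. Total RNA, 1 array per time, was read on 1-colour rat arrays, and levels are log2 signal over the 75th percentile of the array, so that a level of 0 is the signal of a spot at that percentile. A change is the level at a time minus the level at 0 min.

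Insulin lowers hepatic glucose output in part by sending FoxO transcription factors out of the nucleus through the kinase AKT, which takes away a driver of genes such as G6pc1. It also activates the ERK cascade, which induces immediate early genes. These are transcribed within minutes, and their messengers are short-lived, so that they decline soon after the burst. How far a transcript can decline within an hour depends on its decay as well as on its synthesis.

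Per array, 22069 to 24489 of the 43379 spots that are not controls stood well above background, and no spot was saturated. In bulk RNA, fewer cells of a type and less RNA per cell cannot be told apart. The arrays of 0 to 45 min lay on slide 1 and the 60 min array on slide 2, with a scan of its own, so slide and time cannot be told apart at 60 min. The 45 min comparison lies within slide 1. At 45 min 193 probes (0.977%) passed the threshold downwards, and at 60 min 630 probes (3.19%) did. Spots of 1 probe on the same array differed by a median standard deviation of 0.121 to 0.139, so the technical standard deviation of a change was 0.184 to 0.196. The scanner software's own error for a member's change was 0.204 to 0.298. Neither covers the spread between cultures. Of the hepatocyte markers 17 of 18 were measured on all arrays, among them Fgb and Alb with 0 min levels of 8.58 and 7.89, and 6 of 16 markers of other liver cells were, none of them in the set.

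The threshold passed through a continuous range of values. Just inside it lay Rab3a, with changes of −0.78 at 45 min and −0.59 at 60 min, TC603496 with −0.59 and −1.22, and AA848326 with −1.08 and −0.61. Just outside it lay TC621777 with −0.59 and −0.58, DY308710 with −0.64 and −0.58, and TC592876 with −0.83 and −0.58.

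Of the 96 probes 25 carried a gene symbol and stood for 24 genes. That was 26.0% of the set, against 57.8% of all probes measured on all arrays. The other members were 39 expressed sequence tags or messenger accessions, 15 assembled contigs (TC), 8 predicted transcripts and 9 probes known only by their ID. Of the members 70 had a 0 min signal below the median of the measured probes, and 43 lay below the lower quartile, where signal is nearest background. No member spot was flagged as an outlier on any array.

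The members reached the threshold at different times. At 15 min 56 of 96 were already at least 1.5-fold below 0 min, against 0.794% of all probes. Another 14 first passed at 30 min (0.825% of all probes were below it then) and 26 first passed at 45 min. Nothing is read from these shares, because they use the same 0 min value as the rule. The set's median change was −0.65 at 15 min, −0.79 at 30 min, −0.98 at 45 min and −1.11 at 60 min, against 0.03, 0.02, 0.02 and 0.02 over all measured probes.

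**Figure D1:**
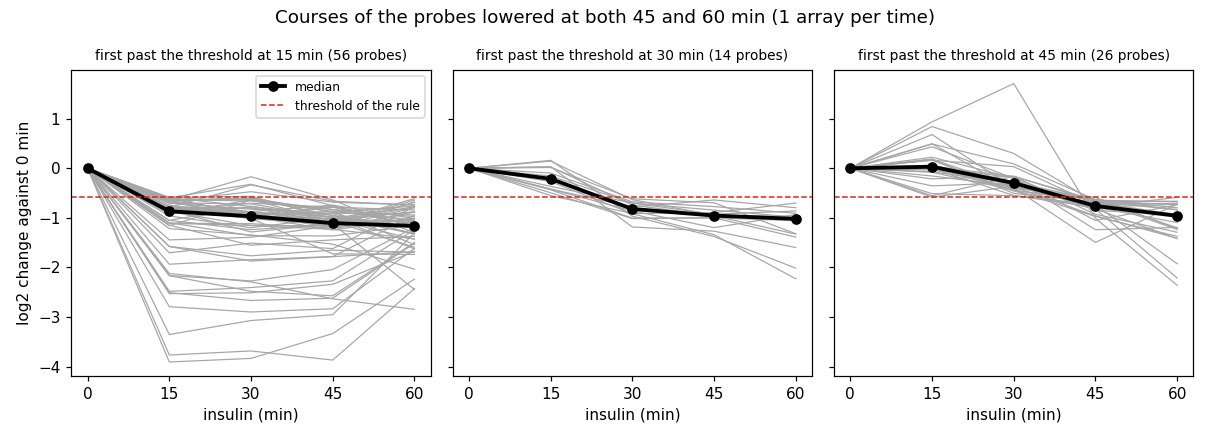
Log2 change against 0 min (vertical axis) by minutes of insulin (horizontal axis) for the 96 probes, 1 grey line each, split by the time at which a probe first lay at least 1.5-fold below 0 min (56, 14 and 26 probes). Black points are the medians of the panel, which reach −1.16, −1.02 and −0.96 at 60 min, and the dashed line is the threshold of the rule.

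The step between 15 and 30 min shares no signal value with the rule, though probes had to be well above background at both times. Over the set, 70 of 96 probes were lower at 30 min than at 15 min, against 52.3% of all measured probes, and the median difference was −0.18, against −0.01. With normexp background this median was −0.86 with 83 lower. With normexp refitted without 5 spots far below their local background, the median was −0.04 with 64 lower. The size of the step thus depends on the background correction. The share over all measured probes is not given for either correction, so the 83 and 64 cannot be set against 52.3%. In 11 members the 30 min signal was at least 1.5-fold below the 15 min signal, and in 1 it was that much above (0.724% of all probes in either direction). The steepest were the contigs TC630658 at −1.21, TC597870 at −1.13 and TC613256 at −1.08. The members highest at 30 against 15 min were Fos at 0.77, Tmem252 at 0.52 and the tag CK839132 at 0.47. Among the 56 members already low at 15 min the median of this step was −0.04. Of them 54 stayed within a 1.5-fold range over 15, 30 and 45 min. Most measured probes moved as little: of 19762, 203 were at least 1.5-fold lower at 45 than at 15 min and 268 as much higher. Nothing particular to these members is therefore read from the 54.

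The members can also be compared with the 15 min array as the start, though the 0 min array still took part in choosing them. Of the members 29 were also at least 1.5-fold below their 15 min signal at both 45 and 60 min, against 0.541% of all probes. That count was 68 with normexp and 12 with its refit, for which no share over all probes is given. The later times are those of the rule, so this is a description too. These 29 included 14 of the 25 probes with a symbol: those of Fos, Dusp1, G6pc1 (both probes), Ccng2, Rnf39, Efna1, Ankrd37, Rtp3, Zfp394, Ctsk, Zbed5, Brd10 and Rad54b. Klf15 missed that cut at 45 min, with a difference of −0.49 from 15 min, and was at −1.08 at 60 min.

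Another background correction, normexp with an offset of 50, kept 36 of the 96 in the set. They were 22 of the members already low at 15 min and 14 of the later ones, 10 of the 36 had a symbol, and 11 of the 36 had a 0 min signal below the median of measured probes. The named ones were Fos, Dusp1, both G6pc1 probes, Klf15, Rtp3, Ankrd37, Sufu, Mtf2 and Rad54b. The other named members no longer passed the threshold under that correction, and their values with it are given beside them. It adds the offset to every signal and also estimates the background in another way. Which of these moved the members was not tested. With a threshold of 1 log2 unit 30 members remained.

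Immediate early signalling was represented by Fos and Dusp1, both of which were first above and then below their starting level. Fos, which pairs with Jun to form AP-1, had levels of 1.78, 2.72, 3.49, 0.77 and −0.57 at 0, 15, 30, 45 and 60 min. It was highest at 30 min, 3.27-fold above 0 min, and had a change of −2.36 at 60 min (software error 0.204), which is 5.12-fold lower. Dusp1, a nuclear phosphatase that switches off MAP kinases, had levels of 3.24, 4.08, 3.54, 2.55 and 2.31. Its peak came at 15 min, earlier than that of Fos, at 1.79-fold above 0 min, and at 45 and 60 min it was 1.61-fold and 1.91-fold lower than at 0 min. Rtp3, a receptor transporting protein found in liver, had a course of the same shape, with levels of 2.11, 2.60, 2.19, 1.47 and 1.26, and was 1.79-fold lower at 60 min. The probes lie on the rn4 assembly at chr6:109561099-109561158 for Fos, chr10:16944342-16944661 for Dusp1 and chr8:115388590-115388649 for Rtp3.

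Glucose output and its regulators gave G6pc1 and Klf15. G6pc1 encodes the catalytic subunit of glucose-6-phosphatase, which releases free glucose, and was the only gene with more than 1 probe in the set. Its probe at chr10:90403940-90403999 had levels of 5.33, 5.32, 4.78, 4.58 and 3.40 at the 5 times. The other, 993 bp away at chr10:90402888-90402947, had 1.61, 1.67, 1.33, 0.79 and −0.61. Both were level up to 15 min and lowest at 60 min, where they were 3.80-fold and 4.64-fold below 0 min. Most of that distance lay between 45 and 60 min, at −1.18 and −1.39, the step across the slides. Klf15, a Krüppel-like factor that activates gluconeogenic and amino acid-degrading genes, had levels of 5.27, 5.12, 4.91, 4.63 and 4.04, lower at each time than at the one before. At 45 and 60 min it was 1.57-fold and 2.35-fold below 0 min.

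Ccng2 encodes cyclin G2, an atypical cyclin that restrains proliferation and is under FoxO control. Its levels were −1.21, −1.05, −1.67, −2.03 and −2.63, which is 2.68-fold lower at 60 min. With normexp its change was −0.38 at 45 min, short of the threshold. Efna1, a membrane-anchored ligand of Eph receptors, had −2.21, −2.06, −2.84, −3.15 and −3.18. Most of its distance from the 15 min level was reached by 30 min, at −0.78, and with normexp its changes were −0.22 at 45 min and −0.69 at 60 min. Rnf39, a RING finger protein, had −1.59, −1.41, −1.97, −2.55 and −3.01, and was 2.66-fold lower at 60 min. With normexp it had changes of −0.39 and −0.92. Ankrd37, an ankyrin repeat protein and known target of hypoxia-inducible factor, stayed near its start at 0.31, 0.09 and 0.14 up to 30 min and then had −0.62 and −0.98.

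**Figure D2:**
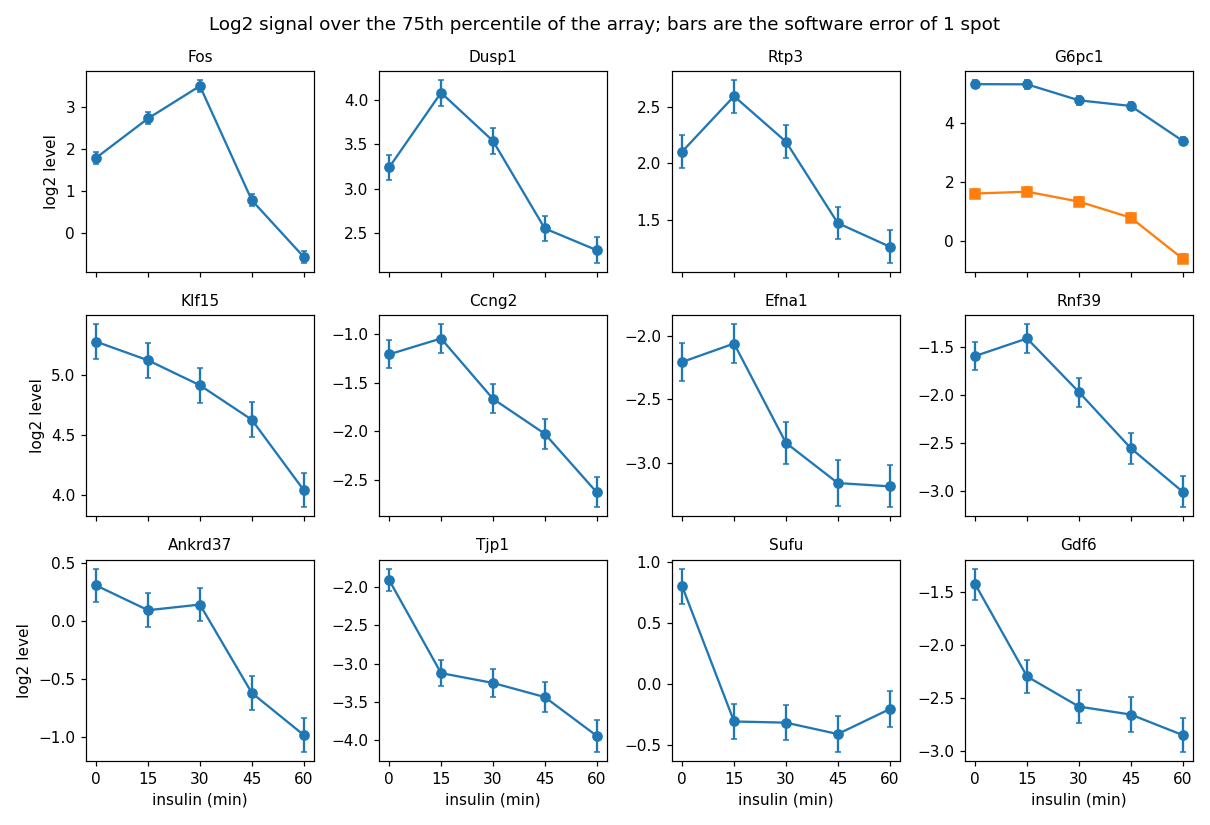
Log2 level over the 75th percentile of the array (vertical axis, own scale per panel) by minutes of insulin (horizontal axis) for 12 genes of the set, with 1 array per time and bars for the software's error of a single spot; orange squares are the second G6pc1 probe. Fos, Dusp1 and Rtp3 peak at 15 or 30 min before they lie below 0 min. G6pc1, Klf15, Ccng2, Efna1, Rnf39 and Ankrd37 are lower only later. The member probes of Tjp1, Sufu and Gdf6 are lower from 15 min on. Other measured Tjp1 probes, not shown here, were above 0 min at 15, 30 and 45 min.

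Promoters of 5 genes with a late course are shown because they let the forkhead sites that FoxO factors bind be set beside the courses above. They come from RefSeq on GRCr8, 5′ to 3′, from 250 bases before the gene's start to 50 after it, and 19 of the 24 genes matched that table. Capitals mark matches on either strand to any of 6 motifs. The forkhead motif was searched as GTAAACA. For the E-box the letters were CACGTG. The cyclic AMP response element, CRE, was searched as TGACGTCA. An AP-1 site was taken as TGACTCA. For the GC box the letters were GGGCGG. The TATA box was searched as TATAAA. Positions below count the first base of the match from the start.
G6pc1, chr10:86807409-86807708 (plus strand): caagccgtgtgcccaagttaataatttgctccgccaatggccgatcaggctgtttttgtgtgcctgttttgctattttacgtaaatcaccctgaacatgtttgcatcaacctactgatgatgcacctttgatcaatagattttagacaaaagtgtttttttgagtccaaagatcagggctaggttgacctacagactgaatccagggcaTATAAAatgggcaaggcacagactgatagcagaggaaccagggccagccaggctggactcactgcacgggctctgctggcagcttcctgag
Klf15, chr4:124522765-124523064 (plus strand): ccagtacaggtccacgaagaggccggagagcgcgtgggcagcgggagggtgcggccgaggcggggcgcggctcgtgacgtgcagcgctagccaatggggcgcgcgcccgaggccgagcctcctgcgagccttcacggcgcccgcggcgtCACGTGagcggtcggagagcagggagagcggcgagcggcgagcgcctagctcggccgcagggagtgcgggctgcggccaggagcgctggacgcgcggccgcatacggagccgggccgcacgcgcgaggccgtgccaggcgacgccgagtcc
Dusp1, chr10:17184603-17184902 (plus strand): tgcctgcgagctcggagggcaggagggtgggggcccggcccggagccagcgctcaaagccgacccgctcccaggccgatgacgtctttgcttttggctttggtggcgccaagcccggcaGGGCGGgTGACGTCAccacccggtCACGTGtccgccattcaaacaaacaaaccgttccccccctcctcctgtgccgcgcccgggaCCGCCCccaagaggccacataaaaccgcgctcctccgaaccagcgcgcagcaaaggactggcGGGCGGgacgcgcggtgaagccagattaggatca
Efna1, chr2:176986772-176987071 (minus strand): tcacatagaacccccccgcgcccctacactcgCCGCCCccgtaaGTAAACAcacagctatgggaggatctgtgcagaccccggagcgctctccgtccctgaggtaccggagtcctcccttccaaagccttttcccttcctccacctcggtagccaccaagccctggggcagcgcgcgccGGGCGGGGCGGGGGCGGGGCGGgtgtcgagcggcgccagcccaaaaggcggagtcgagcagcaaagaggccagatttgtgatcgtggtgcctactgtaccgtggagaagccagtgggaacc
Rnf39, chr20:1615467-1615766 (minus strand): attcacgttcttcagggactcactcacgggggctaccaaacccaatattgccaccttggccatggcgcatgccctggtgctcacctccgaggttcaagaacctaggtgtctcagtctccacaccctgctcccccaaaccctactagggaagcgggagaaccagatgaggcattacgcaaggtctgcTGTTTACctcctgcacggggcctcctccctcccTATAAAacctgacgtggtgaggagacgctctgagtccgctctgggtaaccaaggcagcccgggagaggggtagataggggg

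The forkhead letters were found in 2 of the 19 promoters, against 3.78% of 33469 promoters of the same length. They were those of Efna1, at −206, and Rnf39, on the opposite strand at −64, and both are among the 5 shown. In the window of G6pc1 only the TATA letters were found, at −41, which says nothing about FoxO at sites with other letters or further away. The windows of Klf15 and of Ccng2, which is not shown, had no forkhead letters either. The E-box stood in 5 of 19 (26.3%, against 6.42%), those of Klf15, Dusp1, Ankrd37, Zfp507 and Pitpnm2. The CRE stood in Dusp1 alone (1 of 19, against 1.83%), the GC box in 10 (52.6%, against 33.1%), TATA in 3 (15.8%, against 14.2%) and the AP-1 site in 0 (against 4.63%). In the Efna1 promoter 4 GC box matches overlap or adjoin one another from −71. These counts describe letters and show no binding.

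There were 7 further late members with a symbol. Zfp394, a zinc finger protein, was 2.07-fold and 1.67-fold below 0 min at 45 and 60 min. Ctsk, the lysosomal protease cathepsin K, was 1.90-fold and 1.82-fold lower, and Rab3a, a small GTPase of regulated secretion, had the changes given above. Brd10, a bromodomain gene, had changes of −0.69 and −0.98, Zbed5 of −0.77 and −0.91, and Pitpnm2, a phosphatidylinositol transfer protein, of −0.64 and −0.80. Chac1, which degrades glutathione and is induced by ATF4, had −0.55, −0.16, −0.67 and −0.67 at 15, 30, 45 and 60 min, and so was near its start again at 30 min. All 7 had 0 min levels between −2.88 and −0.76, and with normexp their changes at 45 min lay between −0.48 and −0.14, short of the threshold.

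Members already low at 15 min included 8 probes with a symbol. Tjp1, the tight junction scaffold ZO-1, had levels of −1.91, −3.12, −3.25, −3.44 and −3.94, and was 4.10-fold lower at 60 min. With normexp its changes were −0.53 at 45 min, short of the threshold, and −1.22 at 60 min. Other measured Tjp1 probes stood apart from this one, as given below. Rad54b, a DNA recombination helicase, had −1.77, −2.62, −2.78, −3.49 and −3.50. With normexp its changes were −0.61 and −1.09, still past the threshold. The probe was named through an older symbol, and the RefSeq entry also lists Fsbp. Of the 8, Rad54b alone was also lower than at 15 min by the threshold at both later times. Sufu, a brake on Hedgehog signalling, had 0.80 at 0 min and then −0.31, −0.32, −0.41 and −0.21. Its 4 later levels lay within 0.20 of each other, and the 0 min array stood apart. Gdf6, a secreted BMP-type factor, had −1.43, −2.30, −2.58, −2.66 and −2.85, and with normexp changes of −0.51 at 45 min and −0.95 at 60 min.

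Mtf2, a component of Polycomb complexes, was 2.30-fold and 1.84-fold below 0 min at 45 and 60 min. Tyrobp, an adaptor of receptors on myeloid cells and natural killer cells, was 2.27-fold and 1.74-fold lower. Its level of −2.61 at 0 min was close to background, a second Tyrobp probe was not well above background on all arrays, and the part of other cell types was not tested. Zfp507, a zinc finger protein, had changes of −1.07 and −1.59, and the membrane protein gene Tmem252 of −0.87 and −1.04. With normexp the 45 min changes of Tyrobp, Zfp507 and Tmem252 were −0.23, −0.46 and −0.30, short of the threshold.

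Other probes offered a check within the same RNA. Of the 24 genes 5 had other probes well above background on all arrays, 7 probes in all. Of these 4 were below 0 min at both 45 and 60 min (57.1%, against 24.6% of all measured probes) and 1 passed the threshold at either time. That was Chac1, at −0.31 and −0.67, close to its member probe at 60 min. The Brd10 probe, also counted among the 4, gave −0.04, within the technical standard deviation, and −0.24. It stood apart from its member probe, which had −0.69 and −0.98. For 3 of the genes already low at 15 min the other probes stood apart from the member as well. Those of Tjp1 gave 0.33 and 0.27 at 45 min and −0.21 and −0.14 at 60 min. Those of Mtf2 gave −0.18 and −0.01 at 45 min and −0.05 and −0.46 at 60 min, and that of Tmem252 gave 0.16 and −0.18. The array's probes can read different transcripts of a gene, which was not tested.

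**Figure D3:**
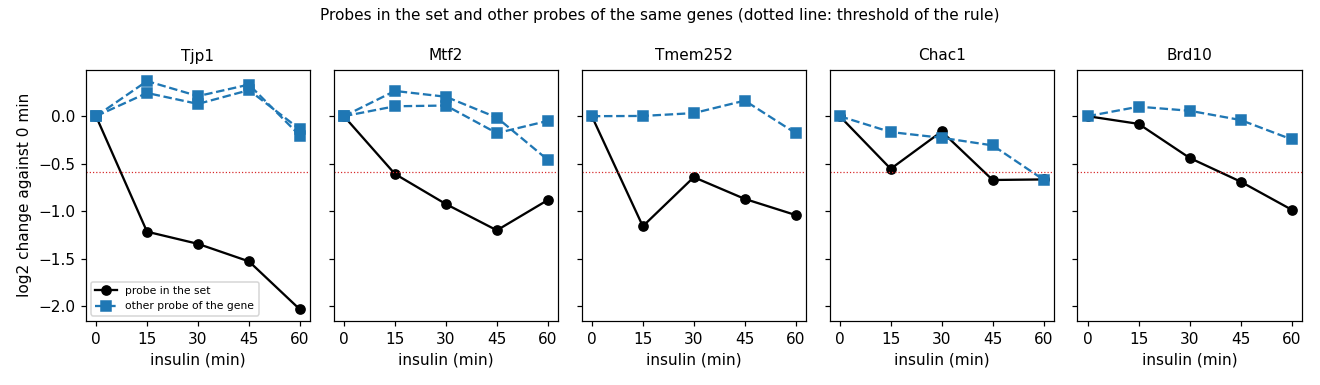
Log2 change against 0 min (vertical axis) by minutes of insulin (horizontal axis) for the member probe (black circles) and the other measured probes of the same gene (blue squares), 1 array per time. The other probes of Tjp1, Mtf2, Tmem252 and Brd10 stay above −0.59 at every time, and the 2 Chac1 probes meet at −0.67 at 60 min.

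At 15 min, the members furthest from 0 min were transcripts without a gene name. This did not hold for all of them at 60 min, where Fos had −2.36 and the unannotated probe A_44_P644032 −1.30. Over all measured probes 11 were at least 4-fold lower at 15 min than at 0 min and 1 was as much higher. Of these 11, 10 were in the set and none of the 10 had a symbol. The predicted transcript ENSRNOT00000038842 had levels of 0.48, −3.28, −3.20, −3.38 and −1.95 at the 5 times, and the unannotated probe A_44_P644032 had 3.34, −0.01, 0.27, 0.39 and 2.04. Both were low from 15 to 45 min and higher again at 60 min. That last step runs from slide 1 to slide 2, so slide and time cannot be told apart in it. In 9 of the 10 the 60 min signal was at least 1.5-fold above the 45 min signal, against 2.21% of all measured probes. The exception was ENSRNOT00000031404, annotated in the files as a Hox2.4 homeobox homologue, with −0.21, −2.34, −2.51, −2.85 and −3.06. Over the set 58 of 96 members were lower at 60 min than at 45 min, against 49% of all measured probes, a step that shares its values with the rule. Of the 38 that were higher, 28 were among the 56 already low at 15 min. These transcripts were singled out after their values were seen. The part of the 0 min array alone in them was not tested.

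**Figure D4:**
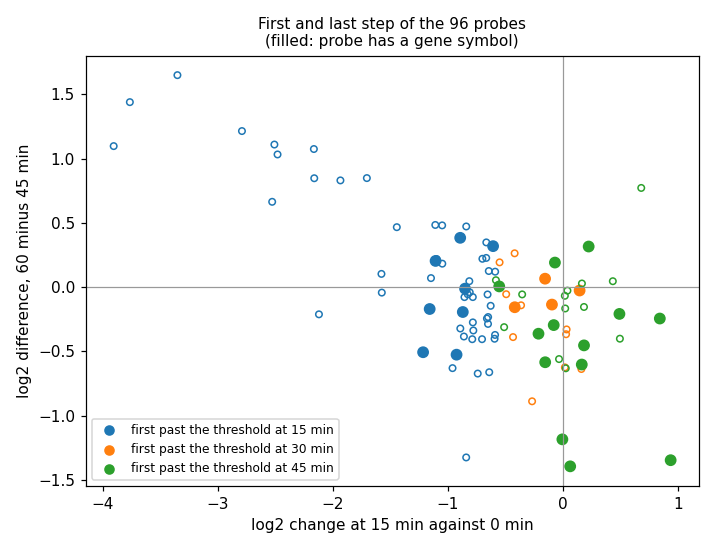
Log2 change at 15 min against 0 min (horizontal axis) and log2 difference of 60 minus 45 min (vertical axis) for the 96 probes, coloured by the time at which they first passed the threshold, with filled points for probes that carry a gene symbol. The 10 probes at −2 or lower on the horizontal axis are all unnamed, and 9 of them lie more than 1.5-fold up on the vertical axis. The vertical axis spans the step from slide 1 to slide 2.

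Of the 71 members without a symbol 10 first passed the threshold at 30 min and 13 at 45 min, against 4 and 13 of the 25 probes with one. TC585453, chosen like the other examples here after its values were seen, had levels of 2.81, 3.30, 2.37, 1.84 and 1.44, with a peak at 15 min and a 2.59-fold lower signal at 60 min. TC630658, whose probe lies on chromosome 10 186167 bp from the nearer G6pc1 probe on rn4, had −1.42, −1.39, −2.61, −2.69 and −3.02. Most of its decline lay between 15 and 30 min, ahead of that of G6pc1. The tag AI071174 had −0.54, −0.80, −1.45, −1.88 and −2.76, and was 4.69-fold lower at 60 min.

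Some members lay beside each other, so that fewer transcripts than probes may be involved. Besides the G6pc1 pair, 3 pairs of probes were within 5000 bp on rn4. AW920322 and TC602468, 480 bp apart on chromosome 8, had 60 min changes of −1.32 and −1.20. AI044365 and AI177894, 812 bp apart on chromosome 6, had −1.37 and −1.06. BI395685 and LOC503325, 193 bp apart on an unplaced sequence, had −1.68 and −0.64. BI395685 also shares 2 accessions with the member BM986231. BI395685 had levels of 7.97 at 60 min and 9.64 at 0 min, and BM986231 of 8.68 at 60 min and 9.62 at 0 min.

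Of the 24 genes 6 were in any of the 16 gene lists. Over all 8851 measured genes with a symbol, 0.271% were in the set. The list of FoxO targets held 3 members (G6pc1, Ccng2 and Klf15) among 20 measured genes, and 10 of the 20 were below 0 min at both 45 and 60 min. Its median change was −0.05 at 45 min and −0.13 at 60 min, against 0.01 and 0.01 over those 8851 genes, of which 2211 were below 0 min at both times. Outside the set, Angptl4, an inhibitor of lipoprotein lipase, had changes of −0.33 at 45 min and −1.10 at 60 min. Other FoxO targets were above 0 min, with 0.80 and 0.61 for Gadd45a, 0.82 and 0.41 for Trib1 and 0.50 and 0.52 for Tob1. Pck1, the gluconeogenic carboxykinase, had 0.00 and 0.15, and Igfbp1, an IGF binding protein, had −0.17 and −0.15. The gluconeogenesis list held G6pc1 alone among 13 genes, with 5 below 0 min at both times and medians of 0.00 and −0.02. Of 25 immediate early genes 2 were members (Fos and Dusp1) and 7 were below at both times, with medians of 0.35 and −0.19. Egr1, an early zinc finger factor, had levels of 4.52 at 45 min and 2.58 at 60 min, against 4.58 at 0 min, and Ccn2 had changes of −0.34 and −0.95. Higher members of that list included Nr4a3, an orphan nuclear receptor, at 2.33 and 2.22, and Atf3, a stress-induced factor, at 1.71 and 1.16.

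Dusp1 was also the only member among 8 ERK feedback genes, Dusp1 and Klf15 were members among 12 glucocorticoid-induced genes, Ccng2 among 19 growth arrest genes and Rad54b among 21 cell cycle and repair genes. The cell cycle and repair list had 12 of 21 genes below 0 min at both times and medians of −0.17 and −0.16, with Brca2 at −0.51 and −0.35. No member came from the lists of the circadian clock, zinc finger and homeobox regulators, BMP and TGF-beta feedback, NF-kB and inflammation, nuclear receptors, bile acid and lipid use, hepatocyte identity, other liver cells or housekeeping. These lists do not hold every gene of a class: the members Zfp507, Zfp394 and Gdf6 were in none of them. With 0.271% of all measured genes in the set, a short list without a member tells nothing about its class. None of the 17 measured hepatocyte genes was below 0 min at both times.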

How the data were processed

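The authors deposited scanner files of 5 arrays, made per the file headers with Agilent Feature Extraction 9.5.3.1 on rat design 014879, with probe coordinates on rn4. Per the file headers, the intensity values had a spatially fitted background subtracted and a multiplicative trend corrected within each array. The deposited flags (0 or 1, of no unit, set by the software, and other than a score) for well above background, saturated and outlier spots were used as given. The authors' series matrix, deposited as log2 values, covers 19746 non-control probes, and how it was made is not stated. Set against the scanner values, it holds the same scaled signal centred on each probe's median over the arrays (correlations of 0.9992 to 0.9998 across probes, column medians of 0). They served as an alternative.

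Processed signal was averaged over the spots of a probe (1 spot for each member), divided by the 75th percentile of non-control spots and taken to log2. No spot was left out and no floor was needed. Probes were named through accessions (10835 and 172 probes), symbols (5201) or older symbols (3488) of a RefSeq table on GRCr8, used for names only. The other 21316 are called as in the files. A gene in a list was represented by its brightest measured probe. Signals of different probes were ranked only to choose that probe and to show closeness to background. The members and lists were chosen with earlier results of these data known. Members with a symbol were named by rule (the 20 largest mean decreases over 45 and 60 min, list members, genes with several member probes and the extremes of 30 minus 15 min), and unnamed transcripts partly after their values were seen. The labels name no cultures or replicates. With 1 array per time no test was possible, and precision is limited by that number. Python 3.11.15, pandas 2.3.3, limma 3.58.1 and R 4.3.3 were used, and the rule was tested on simulated data. The simulated noise was the same for bright and dim probes and held no slide step. That test therefore says nothing about dim spots or the slide in these arrays.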

Additional observations from a re-analysis of the deposited data

How the results depend on the processing

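No paired analysis was possible because each time has 1 array. The set held 96 probes as reported, and 101 with quantile scaling, 96 with median scaling, 96 without outlier spots and 96 with series matrix values, 95 of them shared. It held 36 with normexp background, 36 with normexp refitted without 5 spots far below their local background (added after seeing the data), 426 where only the 0 min value had to be well above background and later values were floored, 30 at a threshold of 1 log2 unit, 107 with 15 min as the start (29 of the 96 among them), and 62 with the mean of 0 and 15 min (51 of the 96). In settings likewise added after seeing the data, it held 193 by 45 min alone, 630 by 60 min alone and 33 with the mean of 0, 15 and 30 min (22 of the 96). The median change of the 96 at 15 min turned from −0.65 to 0.53 with normexp and was −0.23 with the refit, so the reversal came with those 5 spots. At 30 min it was −0.31 with either. The median step from 15 to 30 min, −0.18 as reported, was −0.86 with normexp and −0.04 with the refit. Members also below 15 min numbered 68 with normexp and 12 with the refit. The cause of the remaining shifts was not tested. Quantile scaling, median scaling, leaving out outlier spots and the series matrix values kept these medians within the technical standard deviation. They also kept the counts within 1.5 times. The floored setting, the stricter threshold, the single late times and the averaged starts moved the number of probes in the set by more than that. Of 50 values of named probes at 45 and 60 min, normexp moved 33 by more than the technical standard deviation and 17 by less. The refit gave the same counts. All 50 moved by less with either scaling, without outlier spots and with series matrix values. Leaving out outlier spots took out no member spot, and the series matrix holds the same scaled signal. Over all 300 values 0 changed sign. Dim spots limit the rest: 43 of 96 members lay below the lower quartile of signal at 0 min.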
